A study of Homo sapiens with 12 samples.

Results

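The genes described here run the cell division cycle: the proteins that load and fire replication origins, the cyclins and cyclin-dependent kinases (CDKs), the E2F transcription factors, the kinetochore, the mitotic kinases and the kinesin motors. They were taken by name from the authors' deposited mRNA table: the CDC (other than CDC42), CDK, CCN, CENP, KIF, BUB, AURK, PLK, MCM, E2F and ORC families, with MKI67, PCNA, UHRF1, TPX2, BIRC5 and UBE2C. The rule took 47 of the 4988 genes in that table. It would take 172 protein-coding symbols of the RefSeq gene table, so 27.3% of the families was listed, and the other members, among them the MCM helicase subunits other than MCM5 and MCM6, were not analysed here. No measured value entered the rule, but the deposited table itself holds genes that the authors had selected as different on these samples.

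Total RNA had been sequenced from 3 bufotalin-treated and 3 control samples. Bufotalin is a bufadienolide from toad venom, a cardiac glycoside of the kind that blocks the sodium pump. The labels of all 6 samples give a xenograft of Hep3B, a line from human hepatocellular carcinoma that lacks p53, whereas the series' title and design speak of Hep3B cells. Dose, duration, the host animal and whether replicates came from separate animals are not given in the sources used here, so p-values measure the spread among these libraries only, and that spread may be technical; all results come from this line alone. In bulk RNA, fewer cells of a type and less RNA per cell cannot be told apart.

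Before a cell copies its DNA, the origin recognition complex and its partners place the ring-shaped MCM helicase on the chromosomes, a step called licensing. At the start of S phase, CDKs and E2F factors switch on the replication genes, and PCNA then clamps the polymerases to the template. Later in the cycle cyclin B with CDK1, Polo-like and Aurora kinases, kinetochores and kinesin motors separate the chromosomes. Many replication genes carry E2F sites in their promoters, and many mitosis genes carry a cell cycle genes homology region (CHR) with CCAAT boxes, through which the DREAM, MYB-MuvB and FOXM1 complexes act.

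Promoters of 4 members, 2 from each class, are shown because their transcripts are central to the values that follow. All 4 hold an E2F or CHR word of the kind named for their class. They do not stand for the mitosis class as a whole, where 4 of 12 promoters held a CHR word. Each line gives the 250 bases upstream of the RefSeq start on GRCh38.p14, 5′ to 3′ on the gene's own strand, in lower case. Capitals mark matches on either strand to the CHR words TTTGAA or TTTAAA, to the E2F words TTTGGCGC, TTTCCCGC, TTTGCCGC or TTTCGCGC, and to CCAAT.
MCM6 (chr2:135876444-135876693, minus strand): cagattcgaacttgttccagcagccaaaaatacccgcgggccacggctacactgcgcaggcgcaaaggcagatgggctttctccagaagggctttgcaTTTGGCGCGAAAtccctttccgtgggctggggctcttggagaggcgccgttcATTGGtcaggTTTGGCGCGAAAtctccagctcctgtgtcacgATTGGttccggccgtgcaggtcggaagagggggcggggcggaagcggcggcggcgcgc
PCNA (chr20:5126623-5126872, minus strand): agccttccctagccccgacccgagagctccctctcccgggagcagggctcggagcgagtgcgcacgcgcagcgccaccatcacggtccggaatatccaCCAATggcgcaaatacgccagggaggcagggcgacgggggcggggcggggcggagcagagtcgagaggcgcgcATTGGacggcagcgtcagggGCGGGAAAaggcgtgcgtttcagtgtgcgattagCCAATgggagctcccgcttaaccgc
MKI67 (chr10:128126424-128126673, minus strand): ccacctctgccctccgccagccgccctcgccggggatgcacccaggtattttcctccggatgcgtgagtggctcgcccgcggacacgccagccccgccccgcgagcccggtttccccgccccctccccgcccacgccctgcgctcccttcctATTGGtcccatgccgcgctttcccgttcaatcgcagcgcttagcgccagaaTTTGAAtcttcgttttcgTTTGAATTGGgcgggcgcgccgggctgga
CCNB1 (chr5:69166900-69167149, plus strand): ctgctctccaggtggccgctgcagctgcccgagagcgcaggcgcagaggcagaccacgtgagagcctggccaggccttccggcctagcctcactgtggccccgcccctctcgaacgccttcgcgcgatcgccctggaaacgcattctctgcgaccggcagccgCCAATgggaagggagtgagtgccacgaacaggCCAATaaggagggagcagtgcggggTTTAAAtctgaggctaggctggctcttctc

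The MCM6 promoter held 4 E2F words in 2 places, at 152 and 90 bases upstream of the start, and in both places a forward TTTGGCGC overlapped a reverse TTTCGCGC. PCNA had a single E2F word, 59 bases upstream. MKI67 had the CHR word TTTGAA at 47 and 29 bases upstream, the nearer of them overlapping a reverse CCAAT box by its last base, and CCNB1 had TTTAAA at 30 bases upstream behind CCAAT boxes at 87 and 55 bases. RefSeq promoters were matched for 36 of the 47 members. E2F words stood in 4 of the 5 matched replication promoters (MCM6, ORC3, PCNA and UHRF1, but not ORC6) and in 0 of 12 matched mitosis promoters, against 2.79% of the 27305 promoters in the table. CHR words stood in 4 of the 12 mitosis promoters (CENPF, CCNB1, MKI67 and PLK1) and in 0 of the 5 replication promoters, against 22.1% of all promoters, so this short word is common. CCAAT was found in 8 of 12 and 5 of 5, against 33.0%. Replication genes with E2F words were found among those that fell (MCM6, ORC3) and among those that did not (PCNA, UHRF1). A match is a description of letters, not a bound site.

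The bufotalin libraries held more transcript of most cell cycle genes listed, but less of several licensing genes. FPKM counts fragments scaled by transcript length and library size. Of the 43 members that averaged 0.5 FPKM or more over the 6 libraries, limma called 29 higher and 9 lower at an adjusted p under 0.05, and 5 were not called. In all, 93.2% of the 4273 tested genes were called, 44.3% higher and 48.8% lower, so that a call as such sets no member apart. The median log2 fold change was 0.42 over the tested members and 0.13 over all tested genes. Among genes that averaged 5 FPKM or more, where most members lie, the 2999 genes of the table had a median of 0.36 with 54.1% called higher and 37.7% lower, and the 40 members a median of 0.42 with 67.5% higher and 20.0% lower. Scaling the libraries to equal medians moved the median of all tested genes to 0.31, and quantile normalization to 0.05. Fold changes here are of bufotalin over control on log2(FPKM + 1), and SE is the standard error of the fit.

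**Figure D1:**
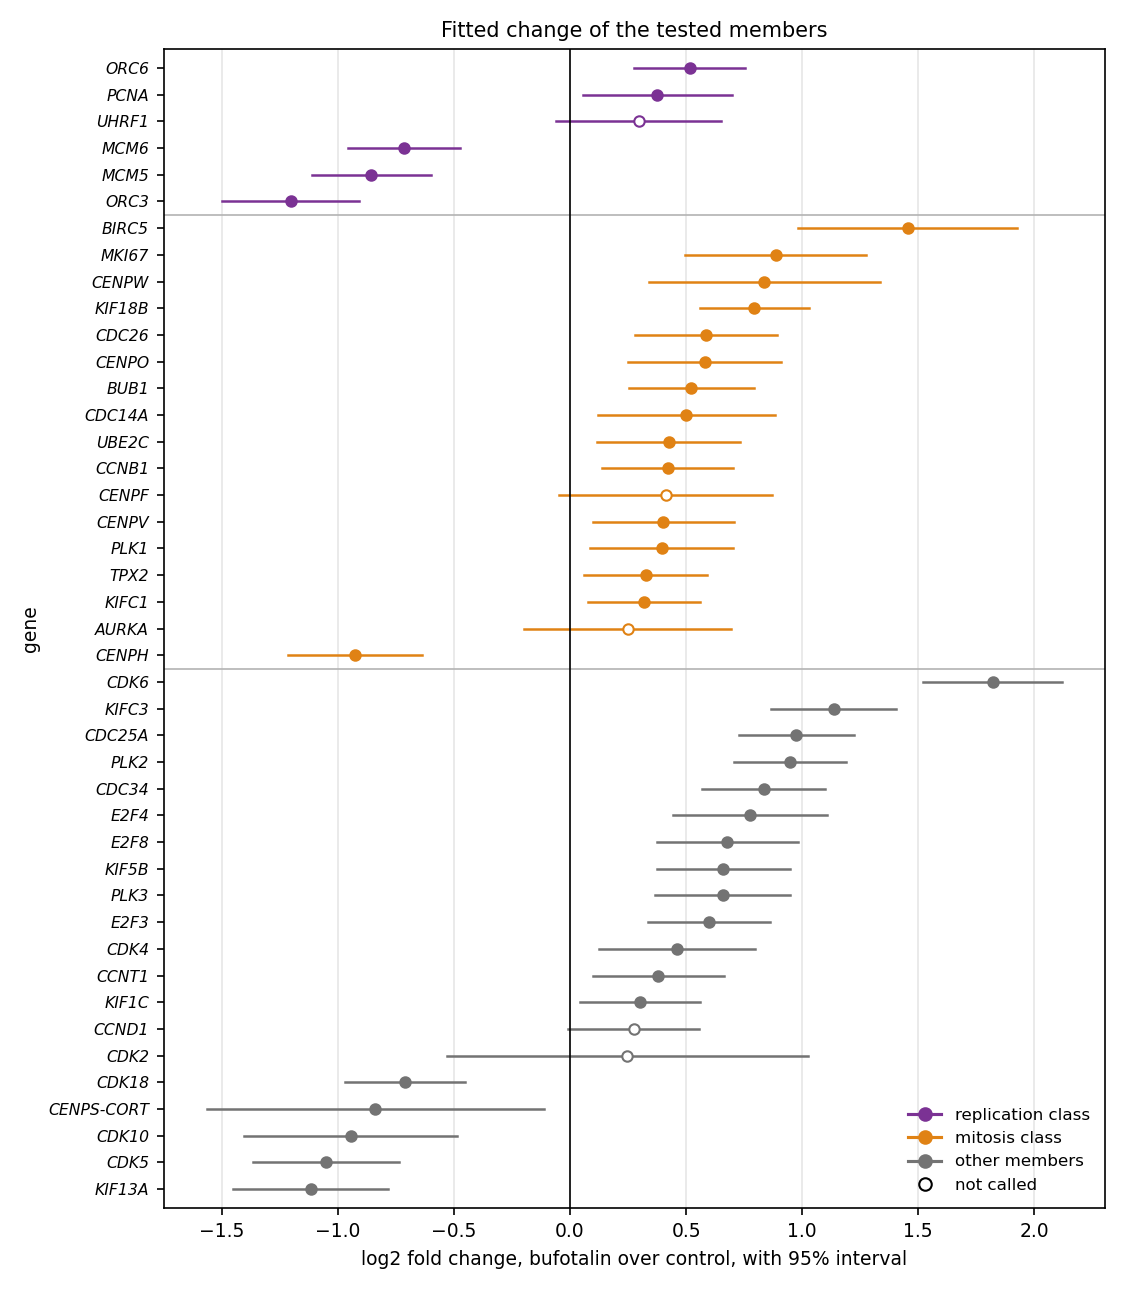
Change fitted by limma for bufotalin over control (x axis, log2) for the 43 tested members (y axis), with 95% intervals, coloured by class. Filled points passed limma at an adjusted p under 0.05 and open points did not. CDK6 had the highest value (1.82) and ORC3 the lowest (-1.20), and CENPH (-0.93) was the single mitosis gene below 0.

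The replication class held 6 of the 20 genes listed for it, and it was split: 3 fell, 2 rose and 1 was not called. ORC3 (chromosome 6, 87590067 to 87667453), a core subunit of the origin recognition complex, had 6.18, 8.26 and 8.24 FPKM in the bufotalin libraries, against 17.4, 18.4 and 20.1 FPKM in the control libraries. Every bufotalin library lay below every control library, and the level was 0.406 of control (log2 fold change -1.20, SE 0.13, limma adjusted p = 2.66e-05). ORC6 (chromosome 16, 46689643 to 46698394), the small subunit of the same complex, went the other way, with 35.4, 37.9 and 33.8 FPKM in the bufotalin libraries, against 24.8, 23.2 and 26.1 FPKM in the control libraries. Its groups did not overlap either (0.51, SE 0.11, limma adjusted p = 0.00128). Thus, within the origin recognition complex, ORC3 transcript was lower and ORC6 transcript higher in the same libraries.

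MCM5 (chromosome 22, 35400134 to 35425431) and MCM6 (chromosome 2, 135839626 to 135876443) encode subunits of the replicative helicase ring, and both fell. MCM5 had 18.1, 19.8 and 22.6 FPKM in the bufotalin libraries, against 38.1, 36.0 and 37.5 FPKM in the control libraries (-0.86, SE 0.11, limma adjusted p = 8.4e-05). MCM6 had 34.1, 40.2 and 36.2 FPKM in the bufotalin libraries, against 60.0, 61.7 and 61.3 FPKM in the control libraries (-0.72, SE 0.11, limma adjusted p = 0.000168). In both genes the control libraries lay within a narrow band, far above the highest bufotalin library.

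PCNA (chromosome 20, 5114953 to 5126626), the sliding clamp, was the most abundant member per length, with 199.7, 235 and 184 FPKM in the bufotalin libraries, against 142, 152 and 182 FPKM in the control libraries. The lowest bufotalin library (184 FPKM) lay just above the highest control library (182 FPKM), and the call (0.38, SE 0.14, limma adjusted p = 0.0294) was lost without bufotalin replicate 2 and without control replicate 1 or 2, and under quantile normalization (0.05). UHRF1, which carries DNA methylation through replication, had 32.2, 44.4 and 48.5 FPKM in the bufotalin libraries, against 36.3, 33.9 and 30.0 FPKM in the control libraries, and the groups overlapped. Its log2 fold change of 0.30 had a 95% interval of -0.059 to 0.65 and was not called (limma adjusted p = 0.0958), but it was called without bufotalin replicate 1 and with equal medians. Over the 6 genes the median log2 fold change was -0.21, with 33.3% called higher and 50.0% lower, beside 44.3% and 48.8% of all tested genes. All 6 averaged above 5 FPKM. Among tested genes at 5 FPKM or more, 54.1% were called higher and 37.7% lower, with a median of 0.36. The share that fell was thus near that of all tested genes and above that of genes at this level, but it rests on 6 genes. The split was 1 higher and 3 lower under quantile normalization, and 3 and 3 with equal medians.

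Replication genes outside the member rule, from a list of 42 fork and origin factors, also went both ways. Of the 14 in the table, 8 fell, 4 rose and 2 were not called, with a median log2 fold change of -0.79. For comparison, 48.8% of all tested genes were called lower, and 37.7% of those that averaged 5 FPKM or more, where most of the 14 lie. POLD4, a subunit of polymerase delta, had 0.703, 0.474 and 0.849 FPKM in the bufotalin libraries, against 3.69, 3.89 and 4.03 FPKM in the control libraries. PRIM1, the catalytic subunit of primase, averaged 10.2 ± 0.861 FPKM in bufotalin and 26.2 ± 1.03 FPKM in control libraries (SD, n = 3 each), and POLA2, of the polymerase that primase works with, 10.6 ± 0.925 and 20.1 ± 1.30 FPKM. LIG1, which joins Okazaki fragments, averaged 8.12 ± 0.226 FPKM in bufotalin and 18.4 ± 0.611 FPKM in control libraries, and CHAF1B, a histone chaperone subunit, 9.21 ± 0.242 and 17.2 ± 1.70 FPKM. FEN1, the flap nuclease that acts just before LIG1, rose instead, with 102 ± 11.1 FPKM in bufotalin and 55.1 ± 1.62 FPKM in control libraries. The same genes had log2 fold changes of -1.54 (POLD4), -1.29 (PRIM1), -0.87 (POLA2), -1.09 (LIG1), -0.83 (CHAF1B) and 0.87 (FEN1). Of 8 listed genes of nucleotide supply, the 2 in the table rose: the thymidylate kinase gene DTYMK (0.68) and the thymidine kinase gene TK1 (0.43).

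Of 8 listed E2F genes, 3 were in the table, and all 3 rose. E2F3, an activator of S phase genes, had 17.4, 19.0 and 19.0 FPKM in the bufotalin libraries, against 11.2, 11.0 and 13.5 FPKM in the control libraries (0.60, SE 0.12). E2F4, best known as a repressor partner in the DREAM complex, had 32.2, 28.2 and 24.3 FPKM in the bufotalin libraries, against 13.4, 16.7 and 18.3 FPKM in the control libraries (0.77, SE 0.15). E2F8, an atypical E2F that represses E2F targets, had 6.32, 8.12 and 9.14 FPKM in the bufotalin libraries, against 4.36, 4.49 and 4.61 FPKM in the control libraries (0.68, SE 0.13). In none of the 3 genes did the groups overlap, which held for 92.5% of all tested genes. Limma adjusted p was 0.000899, 0.000765 and 0.00101 for E2F3, E2F4 and E2F8. All 3 averaged above 5 FPKM, and 54.1% of tested genes at that level were called higher.

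Of the 6 genes in the table that act in G1 and at the entry into S phase, 4 rose and 2 were not called. All 6 averaged above 5 FPKM, and 54.1% of tested genes at that level were called higher and 37.7% lower. CDK6 (chromosome 7, 92604921 to 92836594), a partner of the D cyclins, changed most of all tested members, with 67.3, 86.4 and 92.1 FPKM in the bufotalin libraries, against 21.7, 22.0 and 23.2 FPKM in the control libraries. It was 3.68 times the control level (1.82, SE 0.13, limma adjusted p = 3.56e-06), and bufotalin replicate 1 was the lowest treated library yet far above control. Its paralog CDK4 had 197, 151 and 156 FPKM in the bufotalin libraries, against 113, 142 and 109.9 FPKM in the control libraries (0.46, SE 0.15), and this call was lost without bufotalin replicate 1, without control replicate 1 and under quantile normalization (0.20). CDC25A, the phosphatase that activates CDK2, had 47.8, 54.4 and 51.5 FPKM in the bufotalin libraries, against 25.3, 23.8 and 27.6 FPKM in the control libraries (0.98, SE 0.11), and its level was 2.00 times that of control. CDC34, a ubiquitin-conjugating enzyme of the SCF ligases, had 25.8, 23.9 and 22.5 FPKM in the bufotalin libraries, against 14.1, 13.7 and 11.5 FPKM in the control libraries (0.83, SE 0.12).

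CCND1, which encodes cyclin D1, had 50.7, 45.9 and 54.4 FPKM in the bufotalin libraries, against 38.2, 38.8 and 47.6 FPKM in the control libraries. A single control library, replicate 3, overlapped the bufotalin range, and the log2 fold change of 0.27 (95% interval -0.0079 to 0.56) was not called, although it was called without control replicate 3 or bufotalin replicate 2 and with equal medians. CDK2 had 65.6, 44.4 and 64.1 FPKM in the bufotalin libraries, against 81.9, 35.1 and 38.3 FPKM in the control libraries, where control replicate 1 was higher than every other library. It was not called (0.25, 95% interval -0.53 to 1.03). Without control replicate 1 its log2 fold change was 0.63 and called, and under quantile normalization it was -0.014.

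**Figure D2:**
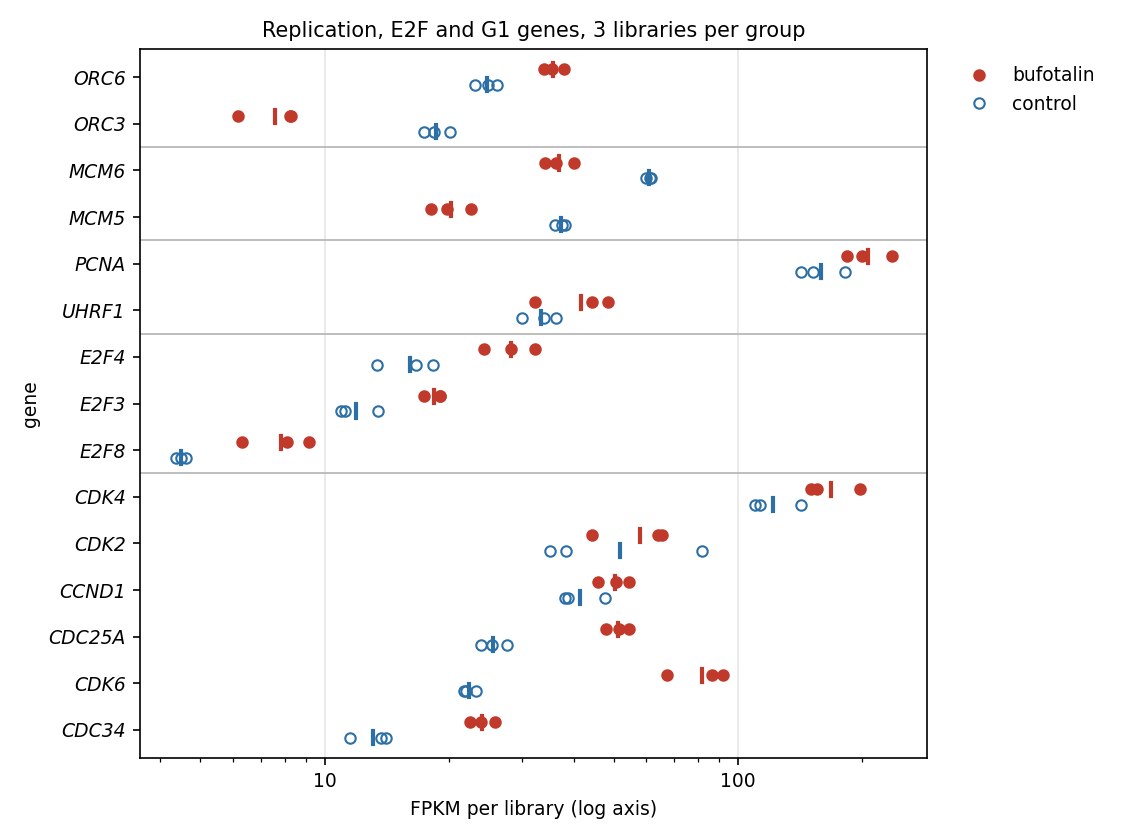
FPKM per library (x axis, log scale) of the replication, E2F and G1 genes (y axis), with bufotalin libraries filled and above the open control libraries of each gene, and vertical bars for group means (n = 3). The ORC3, MCM6 and MCM5 points of bufotalin lie left of control, those of CDK6 lie far to the right (67.3 to 92.1 against 21.7 to 23.2 FPKM), and CDK2, CCND1 and UHRF1 overlap.

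The mitosis class was nearly uniform in direction. It held 17 of the 62 genes listed for it: 14 rose, CENPH fell, and AURKA and CENPF were not called. Its median log2 fold change was 0.42, with 82.4% called higher and 5.88% lower, beside 44.3% and 48.8% of all tested genes. All of its genes but CDC14A averaged above 5 FPKM. Tested genes at 5 FPKM or more had a median of 0.36, with 54.1% called higher and 37.7% lower. The class median thus lay close to theirs, and the share called higher lay above theirs. The largest rise in the class was that of BIRC5 (1.45). Most changes were modest, and only BIRC5 passed 2-fold on this scale, against 7.14% of all tested genes called higher by at least 2-fold and 25.9% called lower. The direction of the mitosis genes stood already in an earlier description of these data and is no independent support. Under quantile normalization 7 of the 17 were called higher with a median of 0.18, and AURKA turned to -0.044.

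BIRC5 (chromosome 17, 78214186 to 78225636), or survivin, a subunit of the chromosomal passenger complex and an inhibitor of apoptosis, had 29.7, 25.0 and 23.4 FPKM in the bufotalin libraries, against 12.4, 8.61 and 6.33 FPKM in the control libraries. The lowest bufotalin library (23.4 FPKM) lay far above the highest control library (12.4 FPKM) (1.45, SE 0.21, limma adjusted p = 0.000175). MKI67 (chromosome 10, 128096659 to 128126423), the proliferation antigen that coats mitotic chromosomes, had 30.2, 30.2 and 45.1 FPKM in the bufotalin libraries, against 20.0, 19.5 and 15.5 FPKM in the control libraries (0.89, SE 0.17, limma adjusted p = 0.00094), and bufotalin replicate 3 stood above the other libraries. BUB1, a spindle checkpoint kinase, had 85.9, 80.7 and 84.3 FPKM in the bufotalin libraries, against 51.3, 66.0 and 57.3 FPKM in the control libraries (0.52, SE 0.12). CDC14A, a phosphatase with roles at mitotic exit known from yeast, was scarce, with 3.43, 2.49 and 2.53 FPKM in the bufotalin libraries, against 1.80, 1.13 and 2.23 FPKM in the control libraries (0.50, SE 0.17), and its call was lost without bufotalin replicate 1 or control replicate 2.

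UBE2C, the ubiquitin-conjugating enzyme of the anaphase promoting complex, had 104, 87.4 and 94.2 FPKM in the bufotalin libraries, against 80.0, 73.6 and 59.3 FPKM in the control libraries (0.42, SE 0.14), a call lost without bufotalin replicate 1. CDC26, a small subunit of that complex, had 16.4, 18.9 and 17.7 FPKM in the bufotalin libraries, against 12.5, 12.7 and 9.34 FPKM in the control libraries (0.58, SE 0.14). TPX2, the spindle protein that activates Aurora A, had 106, 98.4 and 114 FPKM in the bufotalin libraries, against 89.1, 88.6 and 75.9 FPKM in the control libraries (0.33, SE 0.12), a call lost without bufotalin replicate 3 or control replicate 3. CCNB1 (chromosome 5, 69167135 to 69178245), cyclin B1, had 165, 152 and 129.6 FPKM in the bufotalin libraries, against 105, 109.7 and 118 FPKM in the control libraries (0.42, SE 0.13). These groups did not overlap in any of the 4 genes, which held for 92.5% of all tested genes. UBE2C, TPX2 and CCNB1, like BUB1, were not called under quantile normalization, whereas CDC26 was called. There the log2 fold changes of UBE2C, TPX2, CCNB1 and BUB1 were 0.15, 0.04, 0.16 and 0.21.

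Of the Polo-like and Aurora kinases that start and steer mitosis, PLK1 was called and AURKA was not. PLK1 had 75.1, 54.7 and 62.6 FPKM in the bufotalin libraries, against 44.7, 46.9 and 53.1 FPKM in the control libraries (0.40, SE 0.14), a call lost without bufotalin replicate 1, without control replicate 1 or 2, and under quantile normalization (0.11). AURKA had 92.9, 55.8 and 56.4 FPKM in the bufotalin libraries, against 59.1, 49.6 and 59.1 FPKM in the control libraries, so that bufotalin replicate 1 alone lay above the control range, and the log2 fold change of 0.25 (95% interval -0.20 to 0.69) was not called. CDK1, the partner of cyclin B, and AURKB were not analysed here.

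Of the 5 kinetochore genes of the class in the table, 3 rose. CENPW, which with its partners binds centromeric DNA, had 45.5, 51.2 and 33.8 FPKM in the bufotalin libraries, against 27.4, 28.3 and 16.9 FPKM in the control libraries (0.84, SE 0.22), without overlap although both groups spread widely. CENPO, of the inner kinetochore, had 12.2, 13.8 and 14.6 FPKM in the bufotalin libraries, against 7.58, 11.0 and 7.90 FPKM in the control libraries (0.58, SE 0.15). CENPV had 76.3, 89.6 and 64.2 FPKM in the bufotalin libraries, against 55.9, 55.5 and 60.6 FPKM in the control libraries (0.40, SE 0.13), with a call lost without bufotalin replicate 2 and under quantile normalization (0.10). CENPF, a large kinetochore protein that peaks late in the cycle, had 45.8, 56.7 and 64.2 FPKM in the bufotalin libraries, against 48.5, 47.8 and 30.0 FPKM in the control libraries, and its groups overlapped (0.41, 95% interval -0.046 to 0.87, not called). It was called without bufotalin replicate 1, without control replicate 1 and with equal medians.

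CENPH (chromosome 5, 69189574 to 69210357), of the same inner kinetochore network, had 11.9, 13.6 and 9.87 FPKM in the bufotalin libraries, against 23.4, 23.6 and 22.5 FPKM in the control libraries. The highest bufotalin library held 13.6 FPKM and the lowest control library 22.5 FPKM (-0.93, SE 0.13, limma adjusted p = 0.000108). CENPH lies 11328 bases downstream of CCNB1 on the file's GRCh38 coordinates, and these neighbours thus differed in opposite directions in the same libraries. Of 15 listed mitotic kinesins, 2 were in the table, and both rose. KIF18B, which shortens astral microtubules, had 25.1, 23.4 and 26.4 FPKM in the bufotalin libraries, against 14.2, 13.4 and 14.2 FPKM in the control libraries (0.79, SE 0.10, limma adjusted p = 7.7e-05), and KIFC1, a minus-end motor that bundles spindle poles, 46.1, 45.2 and 42.8 FPKM in the bufotalin libraries, against 38.6, 33.0 and 35.4 FPKM in the control libraries (0.32, SE 0.11). The KIFC1 call was lost without control replicate 2 and under quantile normalization (0.08).

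**Figure D3:**
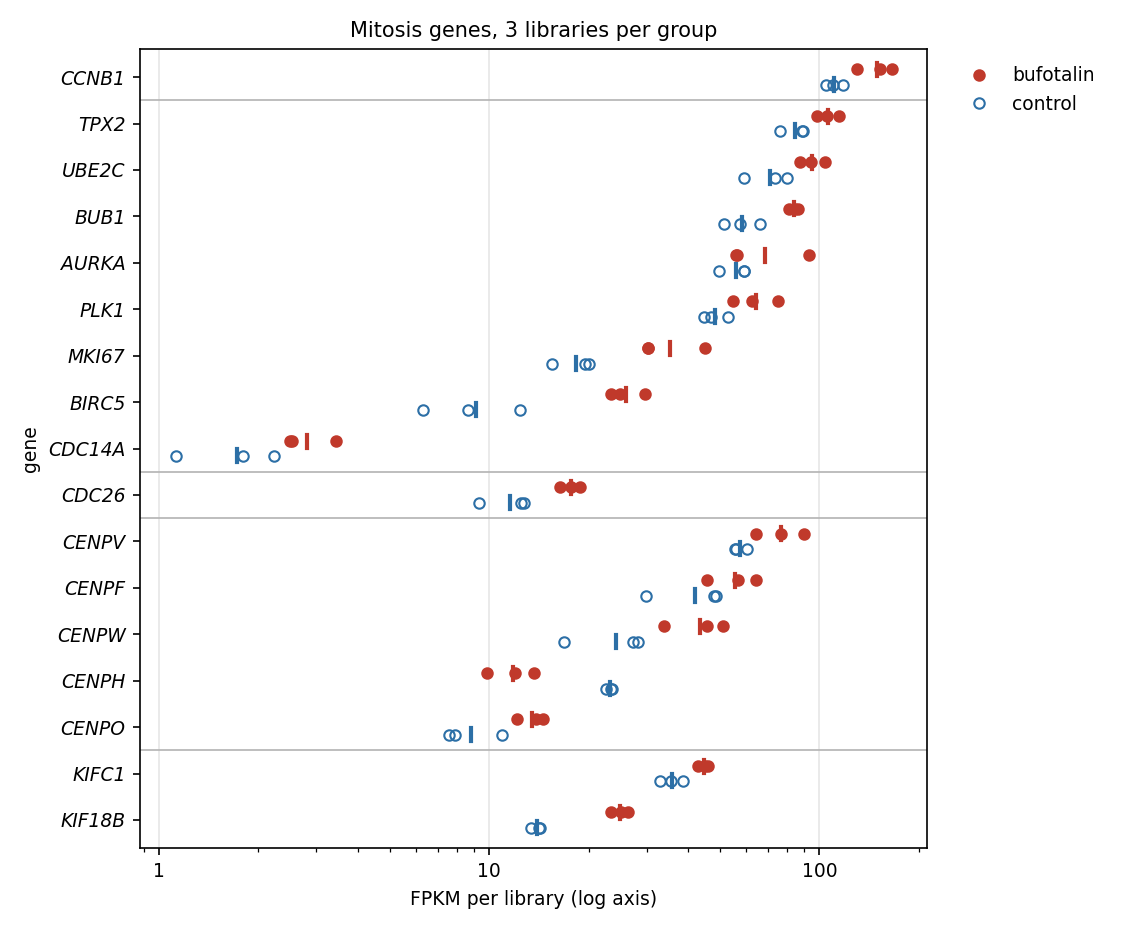
FPKM per library (x axis, log scale) of the 17 mitosis genes (y axis), with bufotalin libraries filled and above the open control libraries of each gene, and vertical bars for group means (n = 3). BIRC5 shows the widest gap (23.4 to 29.7 against 6.33 to 12.4 FPKM), CENPH alone lies left of control, and AURKA and CENPF overlap.

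Mitosis genes outside the member rule went both ways, with more called higher than lower. Of all tested genes 44.3% were called higher and 48.8% lower, and of those that averaged 5 FPKM or more 54.1% and 37.7%. Of 29 listed kinetochore and checkpoint genes, 8 were in the table, of which 5 rose and 3 fell. KNTC1, a subunit of the complex that brings checkpoint proteins to kinetochores, averaged 22.8 ± 1.79 FPKM in bufotalin and 54.2 ± 3.57 FPKM in control libraries (SD, n = 3 each), and MIS18A, which primes centromeres for CENPA, 6.89 ± 0.268 and 15.7 ± 0.391 FPKM. MAD1L1 (0.73), INCENP (0.47) and SPC25 (0.47) rose on the log2 scale, and NSL1 fell (-0.55). All 4 condensin and cohesin genes in the table, of 16 listed, rose: STAG1, a cohesin subunit, averaged 39.6 ± 2.61 FPKM in bufotalin and 17.5 ± 1.50 FPKM in control libraries, and the condensin genes NCAPH2, NCAPG and NCAPG2 had 0.57, 0.39 and 0.41.

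Of 16 listed spindle and cytokinesis genes, 9 were in the table, 6 rose, CEP55 fell and 2 were not called. CEP55, which acts at the final cut between daughter cells, averaged 22.4 ± 1.84 FPKM in bufotalin and 40.3 ± 2.08 FPKM in control libraries. RACGAP1 (0.61), CKAP2 (0.70), ECT2 (0.45), KPNA2 (0.47) and ANLN (0.38) rose on the log2 scale. Of 18 listed genes of the anaphase promoting complex and mitotic entry, 6 were in the table: UBE2S (1.16), CKS2 (1.03) and PKMYT1 (0.89) rose, ANAPC16 (22.3 ± 1.57 FPKM in bufotalin and 45.8 ± 5.20 FPKM in control libraries) and ANAPC11 (log2 fold change -0.89) fell, and CKS1B (0.014) was not called. UBE2S, which extends the ubiquitin chains that UBE2C starts, averaged 124 ± 9.78 FPKM in bufotalin and 55.4 ± 9.04 FPKM in control libraries.

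Mitosis and replication classes thus differed in their counts, 14 higher to 1 lower of 17 against 2 higher to 3 lower of 6. Their medians were 0.42 and -0.21, beside 0.36 over tested genes that averaged 5 FPKM or more. The difference between the classes was not tested, since genes are not replicates.

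**Figure D4:**
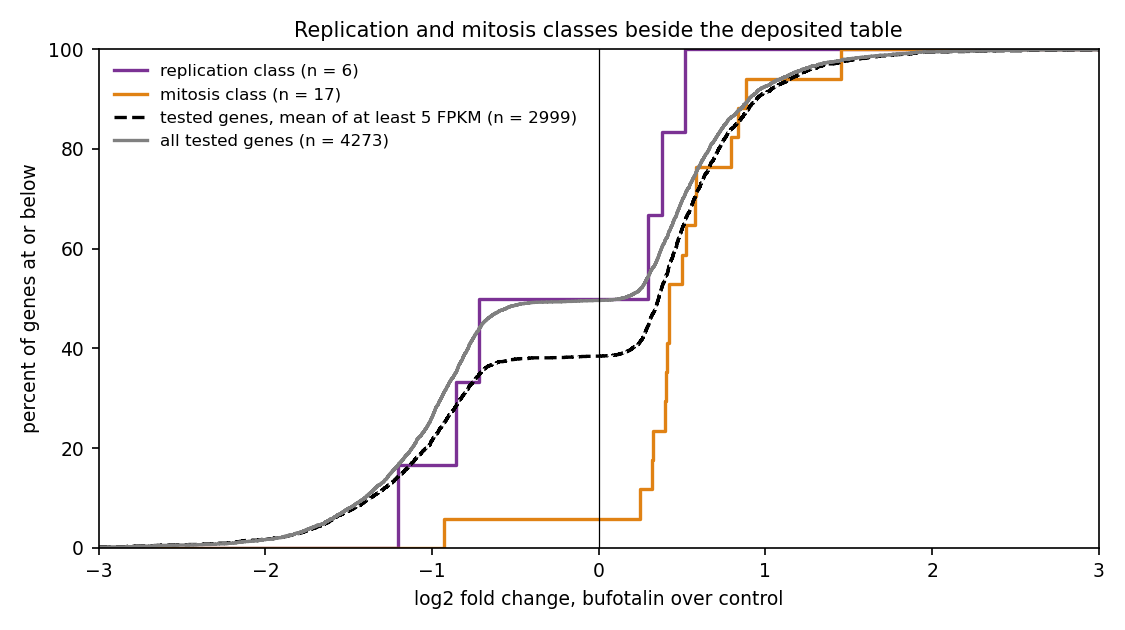
Percent of genes (y axis) at or below each log2 fold change of bufotalin over control (x axis) for the replication class, the mitosis class, tested genes that averaged 5 FPKM or more, and all tested genes. The mitosis curve starts with CENPH at -0.93 and then rises only right of 0 (median 0.42). The replication curve divides evenly around 0, as does that of all tested genes (median 0.13). Genes that averaged 5 FPKM or more had a median of 0.36.

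The regulators above these genes also went both ways. Of 12 listed genes of the RB family and the DREAM and FOXM1 complexes, 8 were in the table. Of these 4 rose, 2 fell and 2 were not called, beside 44.3% called higher and 48.8% lower of all tested genes. RB1, the retinoblastoma gene, averaged 11.7 ± 0.194 FPKM in bufotalin and 24.0 ± 2.92 FPKM in control libraries (SD, n = 3 each), and its relative RBL2 (p130) 7.83 ± 0.808 and 18.3 ± 1.53 FPKM. RBL1 (p107), itself an E2F target, averaged 14.6 ± 0.595 FPKM in bufotalin and 7.18 ± 0.403 FPKM in control libraries. MYBL2, whose product activates late cell cycle genes, rose (0.56), as did LIN54, the DREAM subunit that binds the CHR (0.67), and RBBP4 (0.43). FOXM1, chosen here for its known role after its values were seen, had 0.13 and was not called. Among CDK inhibitors, CDKN1A (0.95) and CDKN2D (0.89) rose, and CDKN2C (-1.29) and CDKN2B (-0.75) fell.

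The other members act mostly outside the division cycle. Of the 4 transcriptional and atypical cyclins and CDKs in the table, 3 fell and 1 rose. All 4 averaged above 5 FPKM, and 37.7% of tested genes at that level were called lower and 54.1% higher. CDK5, a kinase best known in neurons, had 4.78, 3.63 and 3.21 FPKM in the bufotalin libraries, against 8.14, 9.68 and 9.24 FPKM in the control libraries (-1.05, SE 0.14). CDK10 had 9.99, 5.34 and 9.23 FPKM in the bufotalin libraries, against 16.9, 14.3 and 17.5 FPKM in the control libraries (-0.94, SE 0.20), with bufotalin replicate 2 the lowest library. CDK18 had 3.90, 4.67 and 4.85 FPKM in the bufotalin libraries, against 8.36, 7.58 and 7.88 FPKM in the control libraries (-0.71, SE 0.11). CCNT1, the cyclin of the elongation factor P-TEFb, had 25.6, 30.1 and 28.5 FPKM in the bufotalin libraries, against 19.5, 20.1 and 24.7 FPKM in the control libraries (0.38, SE 0.13), and this call was lost without bufotalin replicate 2, without control replicate 1 or 2 and under quantile normalization (0.28).

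PLK2 and PLK3, stress-responsive relatives of PLK1, both rose, beside 44.3% of all tested genes called higher. PLK2 had 14.2, 16.6 and 15.2 FPKM in the bufotalin libraries, against 7.10, 7.73 and 7.54 FPKM in the control libraries (0.95, SE 0.11, limma adjusted p = 3.19e-05), and 2.05 times the control mean. PLK3 had 3.94, 4.30 and 3.85 FPKM in the bufotalin libraries, against 1.87, 2.73 and 2.02 FPKM in the control libraries (0.66, SE 0.13).

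Of the 7 kinesins of transport and other roles in the table, 4 could be tested, of which 3 rose and 1 fell. These 4 averaged above 5 FPKM, and 54.1% of tested genes at that level were called higher and 37.7% lower. KIFC3, a minus-end motor, had 98.3, 92.3 and 81.2 FPKM in the bufotalin libraries, against 40.6, 37.0 and 44.4 FPKM in the control libraries (1.14, SE 0.12, limma adjusted p = 2.16e-05). KIF5B, the heavy chain of conventional kinesin, had 40.6, 49.5 and 50.9 FPKM in the bufotalin libraries, against 29.4, 32.0 and 26.6 FPKM in the control libraries (0.66, SE 0.13). KIF1C had 25.1, 28.1 and 31.0 FPKM in the bufotalin libraries, against 23.8, 21.4 and 22.3 FPKM in the control libraries (0.30, SE 0.12), a call lost without bufotalin replicate 2 or 3, without control replicate 2 or 3, and under quantile normalization (0.19). KIF13A, which moves endosomes and melanosomes, had 11.0, 10.9 and 15.4 FPKM in the bufotalin libraries, against 31.4, 25.8 and 26.6 FPKM in the control libraries (-1.12, SE 0.15, limma adjusted p = 8.64e-05).

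The remaining kinesins were near the bottom of the scale and did not reach the minimum of 0.5 FPKM. KIF17, a ciliary and dendritic motor, had 0.900, 0.731 and 0.901 FPKM in the bufotalin libraries, against 0.0716, 0.0918 and 0.0877 FPKM in the control libraries, and KIF3C had 0.00605, 0.0524 and 0.0218 FPKM in the bufotalin libraries, against 0.279, 0.305 and 0.256 FPKM in the control libraries. KIF26B had 0.0580, 0.0356 and 0.0548 FPKM in the bufotalin libraries, against 0.201, 0.149 and 0.235 FPKM in the control libraries. These groups did not overlap in any of the 3, which held for 92.4% of all genes in the table. With no FPKM minimum all of the 3 were called by limma (log2 fold changes of 0.77, -0.32 and -0.19). In that run 1984 of 4988 genes were called higher and 2472 lower, so these calls do not set the 3 kinesins apart. CDK5R2, an activator of CDK5 known from neurons, was listed at 0 in all bufotalin libraries and had 0.0282, 0.0120 and 0.0581 FPKM in control. CENPS-CORT, a readthrough of CENPS and CORT that shares reads with both, had 0.359, 0.656 and 0.327 FPKM in the bufotalin libraries, against 1.71, 2.95 and 0.597 FPKM in the control libraries. Its groups overlapped, and its call (-0.84, SE 0.31) was lost in 7 of the 12 alternatives that could be run for it.

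Libraries of a group differed moderately for these genes. The median coefficient of variation over the 43 tested members was 12.1% in bufotalin and 9.86% in control libraries, and the widest spread among genes above 5 FPKM was that of CDK2 in control (50.4%), followed by BIRC5 in control (33.8%). Bufotalin replicate 1 was the highest treated library for 8 of 17 mitosis genes (47.1%, against 34.6% of all tested genes), and control replicate 3 the lowest control library for 8 of them (47.1%, against 29.0%). Groups did not overlap in 37 of the 43 tested members, against 92.5% of all tested genes, and in 41 of all 47 members, against 92.4% of the table.

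**Figure D5:**
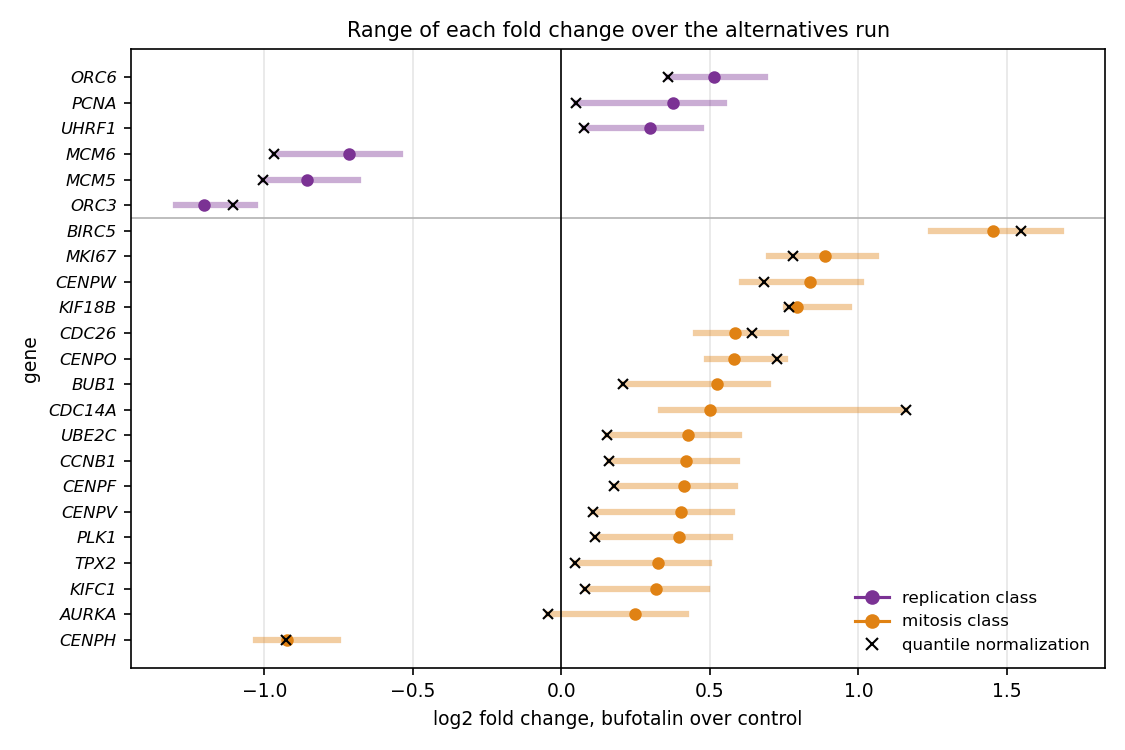
Lowest to highest log2 fold change of bufotalin over control (x axis, pale bars) over 13 other ways of processing, for the genes of the replication and mitosis classes (y axis), with the reported value as a point and quantile normalization as a cross. ORC3, MCM5, MCM6 and CENPH stay below 0 throughout, and AURKA reaches -0.044.

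Facts of the whole table bear on these values. The files give FPKM and no counts, so depth is unknown and no floor was set. The median FPKM of the table was 6.10 to 6.26 in bufotalin and 7.80 to 8.08 in control libraries. Fibroblast markers in the table were lower in bufotalin. All 7 tested of 15 listed fell, beside 48.8% of all tested genes called lower. The 8 in the table summed to 23.9 to 29.8 FPKM in bufotalin and 84.2 to 88.7 FPKM in control libraries. Of 10 endothelial markers 2 were in the table (8.46 to 10.6 against 32.2 to 33.7 FPKM in sum), and they went opposite ways. EGFL7, which makes up most of that sum, averaged 8.45 FPKM in bufotalin and 32.6 FPKM in control libraries. CDH5 averaged 0.943 FPKM in bufotalin and 0.0657 FPKM in control libraries. Of 11 leukocyte markers 3 were in the table (4.61 to 6.82 against 3.18 to 3.53 FPKM in sum). CSF1R and CD14 were higher in bufotalin, and the scarce ITGAM was listed at 0 there. Of 9 erythroid and muscle markers 2 were in the table (0.392 to 0.633 against 2.06 to 15.2 FPKM, the highest in control replicate 3). The part of other cell types or of host reads in the cell cycle values was not tested. The labelled cell type was not checked against liver markers here. CDK4, PLK1, PLK3, CDK10, KIF1C, UHRF1, CENPO, CDC26, E2F3 and CENPS-CORT overlap other protein-coding genes of the RefSeq table. Strandedness is not given in the sources used here, so reads of such neighbours may be shared.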

How the data were processed

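FPKM values per gene (mRNA) and per transcript (lncRNA) were used as deposited by the authors, 3 bufotalin and 3 control libraries each. The submitters' processing notes name CASAVA 1.8, fastp, HISAT2 2.0.5, featureCounts 1.5.0-p3, DESeq2 1.20.0 and GRCh38, with no role given, and the rule by which the authors selected the features is not given in the sources used here. Small RNA was not used here. Ratios of FPKM values under 0.1 between 2 libraries were equal to 3 decimals in at most 9 genes of a pair, so whole reads were not recovered and the precision from depth is unknown.

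log2(FPKM + 1) of genes that averaged 0.5 FPKM or more was compared with limma 3.58.1 (trended, robust eBayes, two-sided, R 4.3.3), with Benjamini-Hochberg adjustment over all 4273 genes tested and a threshold of 0.05. The fit was tested on simulated data. Python 3.11.15, pandas 2.3.3, numpy 2.4.6 and matplotlib 3.10.9 were used for tables and figures. Members, classes and lists were chosen with earlier results of these data known, and the lists overlap with the authors' selection. No set test was run. Values per library were given for the 6 genes named singly, for replication and E2F genes, and for up to 5 called genes of each other class with the largest changes. Those of PLK1 and of the uncalled or untested genes were added after values were seen, as were CDK1 and AURKB as names. Outside the members, up to 6 genes of a list with the smallest p were named.

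Alternatives were quantile normalization, equal medians, a pseudocount of 0.1, no minimum, a minimum of 5 FPKM, limma without trend and robust, the replicate number as a block, and each library left out.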

Additional observations from a re-analysis of the deposited data

Results flagged for a closer look

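The transcript table that was not used above lists 8 noncoding transcripts of genes whose names the member rule takes. Every bufotalin library lay above all control libraries in 4 of them and below in 1, and in the other 3 the groups overlapped. The share of all transcripts in that table whose groups did not overlap was not computed. In the mRNA table it was 92.4% of genes, so these counts do not set the transcripts apart. ORC6-208, of the origin recognition gene that rose, averaged 1.91 FPKM in bufotalin libraries (1.90, 2.31 and 1.52) and was listed at 0 in all 3 control libraries. CENPT-220, of a kinetochore gene not in the mRNA table, averaged 1.24 FPKM in bufotalin libraries (1.31, 1.58 and 0.835), against 0.107, 0 and 0 FPKM in control libraries. CCNG1-210, of cyclin G1, averaged 0.726 FPKM in bufotalin libraries (0.876, 0.611 and 0.691) and was listed at 0 in control libraries. KIF17-206 averaged 0.295 FPKM in bufotalin libraries (0.288, 0.385 and 0.213) and was listed at 0 in control libraries, beside the KIF17 gene value that was also higher. CDK20-206, the transcript that separated the other way, was listed at 0 in all bufotalin libraries and had 0.283, 0.443 and 0.518 FPKM in control libraries. The authors had selected these transcripts on the same samples, and no test was run on them here.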

How the results depend on the processing

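Of the 43 tested members, 25, all of them called, kept both their direction and their call in all alternatives that could be run for them (up to 13). Quantile normalization changed most: 18 members were called higher, 7 in the mitosis class and 1 in the replication class, against 29, 14 and 2, and the medians of these classes were 0.18 and -0.46. AURKA, which was called in none of the alternatives, and CDK2 turned to -0.044 and -0.014 there. With equal medians the class medians were 0.60 and -0.037. Leaving out 1 library at a time gave 23 to 28 members higher and 8 to 9 lower, 11 to 14 mitosis genes higher, 1 to 3 replication genes higher, and medians of 0.40 to 0.52 for mitosis and -0.27 to -0.13 for replication. The numbers of mitosis genes called lower (1) and of replication genes called lower (3) were the same in all 13 alternatives. Same-numbered libraries did not deviate together (correlations of -0.02, 0.03 and -0.05 for replicates 1, 2 and 3). With so few libraries this cannot tell whether same-numbered samples shared an origin or a batch. With the replicate block 28 members were higher and 9 lower. PCNA and KIF1C lost their calls and CCND1 gained one under the block, so that 1 replication gene was called higher. With a minimum of 5 FPKM, 58.8% of all called genes were higher, against 47.6%. The cause of these shifts was not tested, and the unknown depth sets no limit that could be stated.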
